A study of Mus musculus with 3 samples.

Results

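The transcripts of the NF-κB pathway and of the inflammatory mediators tied to it were examined by RNA-seq in MC3T3-E1 cells, a clonal line of mouse calvarial preosteoblasts that is wild type by its label. The members were 42 genes chosen by name: Rel subunits, IκB proteins and IκB kinase subunits, 3 Toll-like receptors, cytokines of the gp130 family with their signal transducers, chemokines, adhesion molecules and inflammatory effectors. Of the 42 genes, 38 were listed among the 15287 genes of the expression table. Cxcl1, Cxcl2, Cxcl14 and Lcn2 were not listed, so their levels were not analysed here and they enter the search of promoters alone. There were 3 libraries, 1 for each condition. The CTL library came from cells with no special treatment. The Ti library came from cells exposed to titanium particles at 10 μg/cm2 for 24 h. For the Ti+Se-Met library, the exposure of 24 h combined that dose of particles with 5 μM selenomethionine, the methionine analogue in which selenium replaces sulfur. Particle debris of this kind is studied as a trigger of inflammatory bone loss around implants, and the comparisons ask how the inflammatory genes of a bone-forming cell stand with the particles alone and with selenomethionine added.

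NF-κB is a dimer of Rel proteins that IκB proteins hold in the cytoplasm. Receptors such as the Toll-like receptors activate the IκB kinase complex, which marks the IκB proteins for destruction, and the freed dimers enter the nucleus and switch on chemokines, cytokines, adhesion molecules and their own inhibitors. The cytokines Il6, Il11 and Lif signal in turn through the shared receptor chain gp130 to the transcription factor STAT3, which induces the feedback inhibitor Socs3. In bone, osteoblasts that release such mediators recruit monocytes and influence the formation of osteoclasts.

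Levels are FPKM values as deposited, that is, fragments per kilobase of transcript and per unit of mapped fragments of the library. A ratio between libraries is a difference in log2(FPKM + 1), in which the added 1 shrinks the ratio of a weakly expressed gene, and a fold is the plain quotient of FPKM values. The depth of each library was estimated by fitting steps of 1 fragment to the low values among 453 short genes. The fit used 111 low values in CTL, 82 with Ti and 85 with Ti+Se-Met. Of these, 59.5%, 52.4% and 50.6% lay on a step. The estimated depths were 14350000 fragments in CTL, 14800000 with Ti and 10200000 with Ti+Se-Met. These depths gave each fold a 95% exact conditional binomial interval, called the counting interval here, which covers counting error only. With 1 library per condition there was no replicate check, no test was made, and a difference between libraries cannot be told apart from a difference between the cultures they came from. In the check of cell identity, Runx2 was at 26.77, 17.14 and 22.97 FPKM in the CTL, Ti and Ti+Se-Met libraries, and 6 of 9 preosteoblast markers reached 1 FPKM in a library. The markers did not hold one level, since Col1a1, a chain of type I collagen, was at 1333.19, 354.2 and 481.63 FPKM and Spp1, osteopontin, at 1261.19, 3705.78 and 4659.49. Alpl, alkaline phosphatase, was above 1 FPKM in CTL alone (1.51, 0.2 and 0.2). The part of these differences in the results was not tested. Sp7, Bglap and Ibsp stayed below 1 FPKM in every library. Of 11 leukocyte and macrophage markers, 6 were not listed, Ptprc and Adgre1 among them, and Lyz2 alone reached 1 FPKM (26.72, 14.76 and 12.42). Fewer cells of a type and less RNA per cell cannot be told apart in such bulk libraries.

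Of the 38 listed members, 32 reached an FPKM of 1 in at least 1 library. In Ti against CTL, 5 of these 32 (15.6%) differed by 2-fold or more, against 7.26% of all 11137 genes above the same limit. Socs3 and Saa3 were higher in Ti, and Ccl5, Birc2 and Socs2 were lower. Saa3 reached the limit through the Ti library alone, where it was high, so the limit itself favoured its call. In Ti+Se-Met against CTL, 4 of 32 (12.5%) passed 2-fold, against 5.96% of all genes, with Pim1 and Socs3 higher and Ccl5 and Birc2 lower. In Ti+Se-Met against Ti, Pim1 was the 1 member past 2-fold (3.12%, against 0.224% of all genes), and it was higher. Each library enters 2 of the 3 comparisons, so the comparisons are not independent of each other.

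The members lay on both sides of 0. The median log2 ratio of the 32 members was 0.01 in Ti against CTL, where that of all genes was 0.08, and 17 members were higher and 14 lower (55.3% of all genes were higher). It was 0.07 in Ti+Se-Met against CTL, where all genes had 0.01, with 17 members higher and 15 lower (51.0% of all genes were higher). It was -0.01 in Ti+Se-Met against Ti, where all genes had -0.06, with 16 members on either side (38.5% of all genes were higher). Rescaling each library to the same sum moved the median of all genes in Ti against CTL from 0.08 to -0.14, and then 12 members were higher and 20 lower. Under the 4 scalings tried, including FPKM as deposited, 26 of the 32 members kept the sign of their ratio in Ti against CTL. The other 6 were Nfkbie, Nfkbiz, Nfkb1, Ikbkb, Tlr2 and Tlr4.

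**Figure D1:**
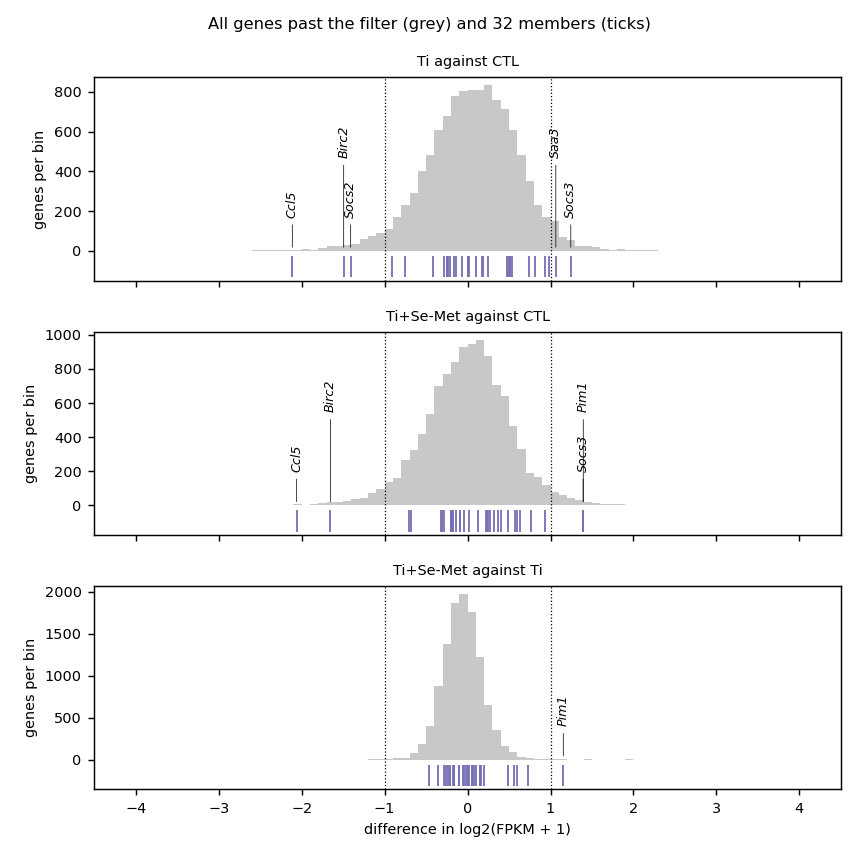
Differences in log2(FPKM + 1) for the 3 comparisons. The horizontal axis is the difference and the vertical axis the number of genes per bin of 0.1 (grey bars, 11137 genes), with the 32 members as ticks under the bars and the 2-fold limits as dotted lines. The ticks spread over both sides of 0, and the named ticks are the members past 2-fold.

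Among the 5 Rel subunits, Rela, the transactivating p65 subunit, differed most from CTL. Rela was at 30.41 FPKM in CTL, 58.97 with Ti and 52.25 with Ti+Se-Met, on about 1120, 2239 and 1368 fragments. Both libraries with particles thus lay above CTL. The fold of Rela in Ti against CTL was 1.94 (counting interval 1.8 to 2.08), and its log2 ratio of 0.93 stayed short of 2-fold, between 0.72 and 0.93 under the 4 scalings.

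Nfkb2 and Relb, whose products p100/p52 and RelB form the dimer of the noncanonical arm, were also higher in Ti. Nfkb2 was at 42.95 FPKM in CTL, 60.05 with Ti and 51.89 with Ti+Se-Met, giving a fold of 1.4 in Ti against CTL (1.32 to 1.48). Relb stood at 12.11, 17.64 and 16.33 FPKM, a fold of 1.46 (1.27 to 1.67) in Ti against CTL. Neither reached 2-fold.

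Nfkb1, which encodes p105/p50, the usual partner of p65, was level across the libraries at 29.4, 29.64 and 29.81 FPKM, and for Ti against CTL the fold had a counting interval of 0.942 to 1.08. Rel, the c-Rel subunit of lymphoid cells, was the lowest at 3.26, 2.19 and 2.42 FPKM, and its fold of 0.672 in Ti against CTL lay below 1 (0.567 to 0.795). The quotient of Rela to Nfkb1, which no scaling between libraries can change, was 1.03 in CTL, 1.99 with Ti and 1.75 with Ti+Se-Met. Rela made up 25.7% of the summed FPKM of the 5 subunits in CTL, 35.0% with Ti and 34.2% with Ti+Se-Met.

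The IκB proteins did not move together. Nfkbia, the IκBα inhibitor and a classical early target of NF-κB itself, was at 21.84 FPKM in CTL, 19.32 with Ti and 20.5 with Ti+Se-Met, and the counting interval of each of its 3 folds held 1. Nfkbib, which encodes IκBβ, was at 10.2 FPKM in CTL, 18.61 with Ti and 15.67 with Ti+Se-Met. Its fold of 1.82 in Ti against CTL (1.55 to 2.16) was the largest of the 4 IκB genes, and it stood at 0.842 for Ti+Se-Met against Ti (0.714 to 0.989). The quotient of Nfkbia to Nfkbib was 2.14 in CTL, 1.04 with Ti and 1.31 with Ti+Se-Met.

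Nfkbie, the gene of IκBε, was at 11.75, 13.44 and 10.25 FPKM, lowest in Ti+Se-Met, with a fold of 0.763 in Ti+Se-Met against Ti (0.649 to 0.895). Nfkbiz, the gene of the nuclear protein IκBζ, was at 5.5, 6.32 and 6.6 FPKM. Summed over the group, the Rel subunits came to 2.4 times the FPKM of the IκB genes in CTL, 2.92 times in Ti and 2.88 times in Ti+Se-Met.

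In the IκB kinase complex, Ikbkg, the regulatory subunit NEMO, stood apart from the catalytic subunits. Ikbkg was at 9.13 FPKM in CTL, 13.64 with Ti and 12.05 with Ti+Se-Met, with a fold of 1.49 (1.37 to 1.63) in Ti against CTL. Ikbkb (IKKβ) was at 16.57, 16.7 and 14.31 FPKM and Chuk (IKKα) at 32.05, 30.54 and 28.34 FPKM, and for both the counting interval in Ti against CTL held 1. All 3 kinase genes had a lower FPKM in Ti+Se-Met than in Ti, with folds from 0.857 to 0.928, and the interval of Chuk held 1.

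None of the 3 Toll-like receptors passed 2-fold. Tlr2, a receptor for bacterial lipoproteins, was at 14.87, 16.09 and 16.29 FPKM. Tlr4, the receptor for endotoxin, was at 6.08 FPKM in both CTL and Ti and was lower with Ti+Se-Met (4.81), where its fold against Ti was 0.791 (0.662 to 0.948). Tlr3, which senses double-stranded RNA, was at 3.26, 2.59 and 2.44 FPKM, with a fold of 0.794 (0.638 to 0.984) in Ti against CTL.

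**Figure D2:**
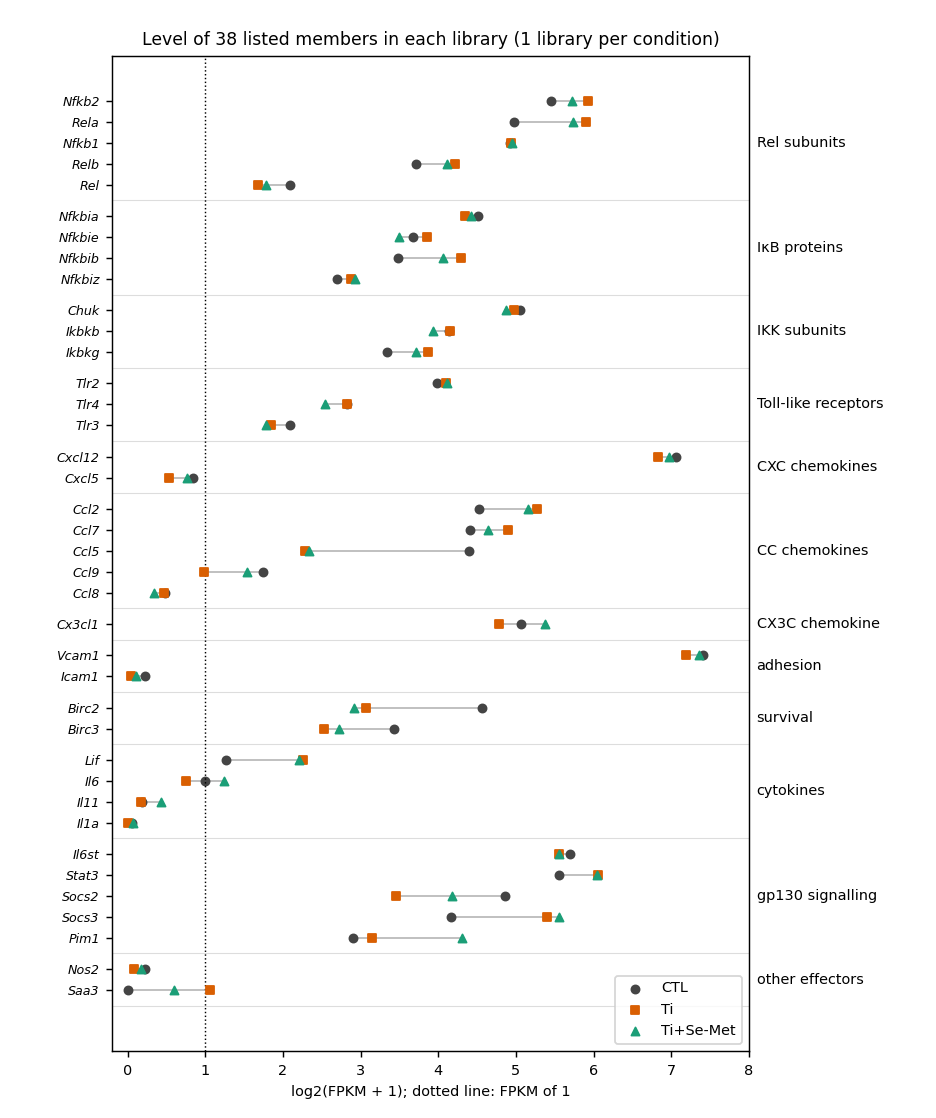
Level of each of the 38 listed members in the CTL (circle), Ti (square) and Ti+Se-Met (triangle) library, grouped by role, on a horizontal axis of log2(FPKM + 1). Rela and Nfkbib lie to the right in both libraries with particles, Nfkb1 is at nearly the same place in all 3, and Ccl5 and Birc2 lie far to the left of CTL in both libraries with particles.

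The promoters of the members were read for the letters that NF-κB and STAT proteins recognise, since the members include known targets of both. RefSeq promoter windows on GRCm38.p6, from 250 bases before to 50 bases after a start site, were found for 30 of the 42 members by symbol. Nfkbiz, Nfkb1, Relb, Ikbkb, Socs2, Cxcl5, Ccl2, Ccl5, Ccl7, Vcam1, Nos2 and Tlr4 had no window and were not searched. The κB consensus of 10 bases was searched on both strands as GGG and a purine at the start, then any pair of bases, then a pair of pyrimidines and CC. It was found in a window of 11 of the 30 members (36.7%), namely Nfkbia, Nfkbie, Nfkb2, Rel, Il6, Lif, Ccl9, Tlr2 and Tlr3 and, with no level in the table, Cxcl1 and Cxcl2, against 9.55% of the 27025 genes with a window and 12.3% of those that also passed the FPKM limit. The STAT motif TTCNNNGAA, which reads the same on both strands, was found in 5 of the 30 members (16.7%), namely Socs3, Nfkb2, Chuk, Icam1 and the unlisted Cxcl14. The share was 9.55% of all genes with a window and 8.22% of those that also passed the FPKM limit. Pim1 had a window without the STAT motif. A match is a description of letters and no evidence of binding. The stretches below are 90 bases each from the gene's own strand, read 5′ to 3′ and ending at or before the base ahead of the start site. The κB stretches are shown because they set members with a match to the same consensus beside each other. Of these, Nfkb2 and Lif were higher in Ti than in CTL, Nfkbia was level and Rel was lower. Capitals mark the κB match, which in Nfkb2 (chr19:46304647-46304736, plus strand) and Rel (chr11:23771000-23771089, minus strand) includes overlapping matches. The Nfkbia stretch is chr12:55492648-55492737 on the minus strand, that of Il6 chr5:30013024-30013113 on the plus strand, and that of Lif chr11:4257348-4257437 on the plus strand. The capitals of Nfkbia fit the consensus when read on the strand opposite to the printed one. In Socs3 (chr11:117969457-117969546, minus strand) the capitals mark the STAT motif.
Nfkbia: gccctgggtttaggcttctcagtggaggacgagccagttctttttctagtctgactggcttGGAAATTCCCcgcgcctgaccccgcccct
Nfkb2: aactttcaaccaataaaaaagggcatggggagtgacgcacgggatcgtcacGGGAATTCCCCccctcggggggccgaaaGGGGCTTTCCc
Rel: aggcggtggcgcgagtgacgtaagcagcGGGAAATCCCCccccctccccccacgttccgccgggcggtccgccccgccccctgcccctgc
Il6: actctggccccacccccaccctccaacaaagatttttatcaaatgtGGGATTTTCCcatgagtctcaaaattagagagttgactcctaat
Lif: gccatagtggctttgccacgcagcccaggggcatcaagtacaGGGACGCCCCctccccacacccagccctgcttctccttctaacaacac
Socs3: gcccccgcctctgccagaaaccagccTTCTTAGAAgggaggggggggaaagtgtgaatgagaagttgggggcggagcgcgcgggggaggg

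The cytokines of the gp130 family were weakly expressed, and Lif was the 1 clearly measured member. Lif, leukemia inhibitory factor, was at 1.41 FPKM in CTL, 3.76 with Ti and 3.6 with Ti+Se-Met, on about 76, 209 and 138 fragments. Both libraries with particles lay above CTL, and the folds were 2.67 (2.04 to 3.51) with Ti and 2.55 (1.92 to 3.43) with Ti+Se-Met. On the log2(FPKM + 1) scale Lif reached 0.98 in Ti against CTL and was not counted as past 2-fold.

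Il6, the main inflammatory cytokine of the family, was near the limit of detection at 0.99 FPKM in CTL, 0.68 with Ti and 1.35 with Ti+Se-Met, on about 11, 8 and 10 fragments. The counting interval of the fold in Ti against CTL ran from 0.246 to 1.92, and that in Ti+Se-Met against Ti from 0.645 to 5.29, so a difference in Il6 was not detectable at this depth. Il11 was at 0.13, 0.12 and 0.34 FPKM. Il1a, an alarmin that signals through the interleukin-1 receptor, was listed at 0 in Ti and was at 0.04 FPKM in CTL and 0.05 with Ti+Se-Met.

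Downstream of these cytokines, the feedback inhibitors Socs3 and Socs2 lay on opposite sides of CTL. Socs3, which blocks gp130 signalling and carries the STAT motif printed above, was at 16.84 FPKM in CTL, 41.26 with Ti and 45.85 with Ti+Se-Met. It was thus high in both libraries with particles, with folds over CTL of 2.45 (2.23 to 2.7) and 2.72 (2.46 to 3.02). For Ti against CTL the log2 ratio of Socs3 was 1.24 and stayed between 1.04 and 1.24 under the 4 scalings.

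Socs2, which restrains growth hormone signalling through STAT5, was at 28.1 FPKM in CTL, 9.95 with Ti and 17.14 with Ti+Se-Met. It was lowest with particles alone, with a fold of 0.354 against CTL (0.309 to 0.405), and the Ti+Se-Met value lay between the others. The fold of Socs2 in Ti+Se-Met against Ti was 1.72 (1.47 to 2.02). The quotient of Socs3 to Socs2 was 0.599 in CTL, 4.15 with Ti and 2.68 with Ti+Se-Met.

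Stat3 was at 45.93, 65.86 and 64.81 FPKM, with a fold of 1.43 (1.37 to 1.5) in Ti against CTL and 0.984 (0.938 to 1.03) in Ti+Se-Met against Ti. Il6st, the gene of gp130, was at 50.74, 46.0 and 46.05 FPKM.

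Pim1, a survival kinase induced by STAT3 and other STAT proteins, was highest with Ti+Se-Met. It was at 6.49 FPKM in CTL, 7.85 with Ti and 18.69 with Ti+Se-Met, on about 195, 244 and 400 fragments, so that it was high in the Ti+Se-Met library and low in the others. The fold in Ti+Se-Met against Ti was 2.38 (2.02 to 2.8), and the log2 ratio was 1.15, between 1.15 and 1.23 under the 4 scalings. In Ti against CTL the fold was 1.21 (1 to 1.47).

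Chemokine transcripts came mostly from Cxcl12, the homing factor for hematopoietic cells that osteoblast-lineage cells secrete without an inflammatory stimulus. Cxcl12 was at 132.93 FPKM in CTL, 112.37 with Ti and 125.01 with Ti+Se-Met. It made up 57.5%, 53.3% and 54.1% of the summed FPKM of the 8 listed chemokines. Cxcl5, a neutrophil attractant, stayed below 1 FPKM at 0.79, 0.45 and 0.69.

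The inducible CC chemokines split by gene. Ccl2, which recruits monocytes and osteoclast precursors, was at 22.1 FPKM in CTL, 37.47 with Ti and 34.67 with Ti+Se-Met, a fold of 1.7 (1.43 to 2.02) in Ti against CTL. Ccl7, the next gene in chromosome order and another monocyte attractant, was at 20.26, 28.87 and 23.91 FPKM, a fold of 1.42 (1.18 to 1.72). Neither passed 2-fold, and for both the counting interval of Ti+Se-Met against Ti held 1 (0.78 to 1.09 for Ccl2 and 0.679 to 1.01 for Ccl7).

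Ccl5 (RANTES), which attracts T cells and monocytes, was the member with the lowest ratio. It was at 20.03 FPKM in CTL, 3.86 with Ti and 4.04 with Ti+Se-Met, on about 110, 22 and 16 fragments. Both libraries with particles lay far below CTL, with log2 ratios of -2.11 and -2.06 and folds of 0.193 (0.117 to 0.309) and 0.202 (0.113 to 0.347). When Ti+Se-Met was set against Ti, the interval of the fold, 0.518 to 2.1, left a difference of up to 2-fold in either direction undetectable. The quotient of Ccl2 to Ccl5 was 1.1 in CTL, 9.71 with Ti and 8.58 with Ti+Se-Met.

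Ccl9, a macrophage inflammatory protein whose gene lies next to Ccl5, was at 2.33 FPKM in CTL, 0.97 with Ti and 1.9 with Ti+Se-Met. Its fold was 0.416 (0.283 to 0.61) in Ti against CTL and 1.96 (1.28 to 2.99) in Ti+Se-Met against Ti, and neither passed 2-fold with 1 added to the FPKM values, although Ccl9 passed it as TPM, with a log2 ratio of -1.12 for Ti over CTL. Ccl8 was at 0.39, 0.38 and 0.26 FPKM, on 1 or 2 fragments in each library. Cx3cl1, fractalkine, a chemokine made as a membrane-bound adhesion molecule, was at 32.49 FPKM in CTL, 26.45 with Ti and 40.6 with Ti+Se-Met. It was highest in Ti+Se-Met, with a fold of 1.54 (1.42 to 1.66) over Ti and of 1.25 (1.16 to 1.35) over CTL.

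**Figure D3:**
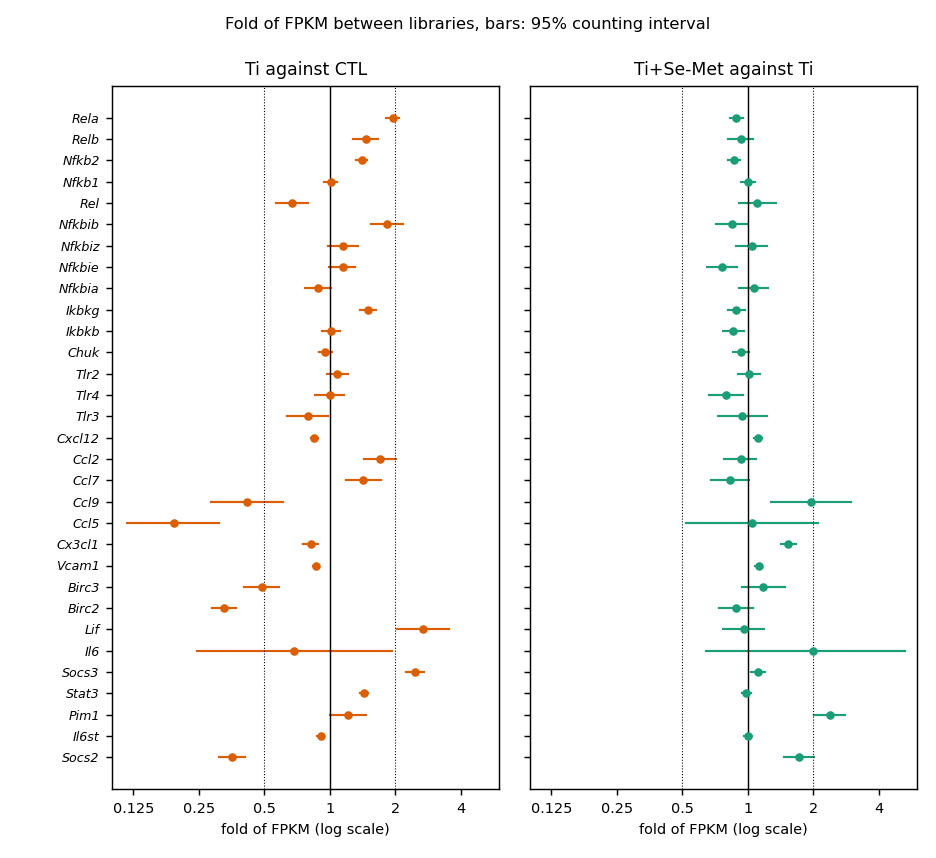
Fold of FPKM in Ti against CTL (left) and in Ti+Se-Met against Ti (right) for 31 members, on a logarithmic axis, with 95% counting intervals as bars and dotted lines at 0.5 and 2. Saa3 is left out because it was listed at 0 in CTL. Ccl5, Birc2 and Socs2 have intervals that lie wholly below 0.5 on the left, and Pim1 lies wholly above 2 on the right.

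Vcam1, the adhesion molecule that binds integrins of leukocytes, was the most abundant member in each library, at 169.14 FPKM in CTL, 145.57 with Ti and 163.51 with Ti+Se-Met. Its fold in Ti against CTL was 0.861 (0.834 to 0.889). Icam1, the other adhesion molecule of the list, was at 0.17, 0.03 and 0.08 FPKM, and no difference was detectable. Nos2, the inducible nitric oxide synthase, was as low, at 0.17, 0.06 and 0.12 FPKM on about 8, 3 and 4 fragments. Saa3, an acute-phase protein, was listed at 0 in CTL, at 1.09 FPKM in Ti and at 0.51 in Ti+Se-Met, on about 7 and 2 fragments, so its place among the members past 2-fold rests on few fragments.

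Birc2 and Birc3 encode cIAP1 and cIAP2, the ubiquitin ligases that couple TNF receptors to NF-κB and hold back the noncanonical arm. Birc2 was at 22.69 FPKM in CTL, 7.41 with Ti and 6.53 with Ti+Se-Met, on about 1003, 338 and 205 fragments. Birc3 was at 9.78 FPKM in CTL, 4.75 with Ti and 5.6 with Ti+Se-Met. Both genes were lower in both libraries with particles than in CTL. The fold of Birc2 was 0.327 (0.288 to 0.37) in Ti and 0.288 (0.246 to 0.334) in Ti+Se-Met, and that of Birc3 was 0.486 (0.404 to 0.584) and 0.573 (0.469 to 0.699), with a log2 ratio of -0.91 in Ti that passed 2-fold with upper-quartile scaling (-1.02) and as TPM (-1.19). The genes lie next to each other on mouse chromosome 9. Tmem123, the gene on the far side of Birc2, was also lower, at 200.88, 65.25 and 71.41 FPKM, whereas Yap1, on the far side of Birc3, was at 42.69, 43.16 and 38.61 FPKM. Tmem123 and Yap1 were chosen for their position after the values of Birc2 had been seen, and what the genes share was not tested.

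Around the members, 116 further genes of the pathway were taken from lists, and 102 of them were listed and 92 reached 1 FPKM. Of these 92, 10 were higher and 3 lower by 2-fold in Ti than in CTL, against 3.63% and 3.64% of all genes. As TPM the split became 8 higher and 6 lower, against 2.09% and 7.76%. It was 10 and 5 by median of ratios, against 3.04% and 3.88%, and 9 and 5 by upper quartile, against 2.17% and 4.8%. In Ti+Se-Met against CTL, 11 were higher and 1 lower, against 2.64% and 3.32%, which became 7 and 3 as TPM, against 2.01% and 7.35%. That split stayed 11 and 1 by median of ratios, against 2.79% and 3.15%. By upper quartile it was 10 and 2, against 2.26% and 3.86%. In Ti+Se-Met against Ti, 2 were higher and 0 lower, against 0.162% and 0.0629%. The median log2 ratio of the 92 genes was 0.13 in Ti against CTL, where all genes had 0.08.

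Among upstream receptors and adaptors, 2 of 27 genes were higher by 2-fold in Ti and 0 lower, a share of 7.41% that is close to the 7.26% of all genes. Cd14, the co-receptor that hands endotoxin to Tlr4, was at 5.7 FPKM in CTL, 16.56 with Ti and 14.81 with Ti+Se-Met, a fold of 2.91 (2.36 to 3.59) in Ti. Irak3, an inhibitory member of the interleukin-1 receptor-associated kinases, was at 1.88, 5.49 and 5.65 FPKM. Irak2, another member of the same family, was at 9.53, 15.79 and 20.99 FPKM and passed 2-fold in Ti+Se-Met against CTL.

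Of the 12 genes that curb or redirect NF-κB, Bcl3 alone passed 2-fold (8.33%, close to the share of all genes). Bcl3, an atypical nuclear IκB that acts with p50 and p52 dimers, was at 0.63 FPKM in CTL, 2.78 with Ti and 3.7 with Ti+Se-Met, on about 15, 70 and 64 fragments. It reached the limit of 1 FPKM only in the libraries where it was high. The fold was 4.41 (2.57 to 8.51) in Ti and 5.87 (3.38 to 11.3) in Ti+Se-Met.

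Other NF-κB target genes included 3 higher and 1 lower by 2-fold in Ti among 19, a share of 21.1% against 7.26% of all genes. Cebpb, a transcription factor that acts beside NF-κB on cytokine genes, was at 39.01 FPKM in CTL, 143.71 with Ti and 120.58 with Ti+Se-Met, and Cebpd was at 15.3, 37.56 and 30.93 FPKM. Both were highest with particles alone. Tnfaip2 was the other gene higher in Ti, with a log2 ratio of 1.10. Cxcl10, a chemokine that NF-κB and interferon signalling share, was the lower gene, at 5.57 FPKM in CTL, 1.68 with Ti and 5.75 with Ti+Se-Met. Its fold was 0.302 (0.178 to 0.48) in Ti against CTL and 3.42 (2.1 to 5.92) in Ti+Se-Met against Ti, whereas Ccl5 was low in both libraries with particles.

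Ptgs2, the cyclooxygenase of inflammation, was at 6.1, 13.0 and 51.82 FPKM, and with Cxcl10 it made up the 2 genes that passed 2-fold between Ti+Se-Met and Ti. Ier3 and Gadd45b passed 2-fold in Ti+Se-Met against CTL alone, with log2 ratios of 1.18 and 1.04, where in Ti against CTL they had 0.83 and 0.85. Under at least 1 other scaling, Tnfaip2 was no longer past 2-fold in Ti against CTL (0.91), nor were Irak2 (0.91), Ier3 (0.99) and Gadd45b (0.87) in Ti+Se-Met against CTL. As TPM, Tab2 (-1.03), Cyld (-1.24) and C3 (-1.23) became lower by 2-fold with Ti than in CTL, as did Lifr (-1.24) and C3 (-1.02) with Ti+Se-Met. Cyld and C3 also passed in Ti with scaling by median of ratios and by upper quartile. Lifr also passed in Ti+Se-Met by upper quartile, whereas Tab2 in Ti and C3 in Ti+Se-Met passed as TPM alone. Tab2, Cyld and C3 were named after their values had been seen.

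Along the gp130 and STAT3 axis, 4 of 32 genes were higher and 1 lower by 2-fold in Ti, a share of 15.6% against 7.26% of all genes. Of the receptor chains that pair with gp130, 1 was higher and 3 were lower in Ti. Osmr, the chain for oncostatin M, was at 10.96 FPKM in CTL, 26.16 with Ti and 24.96 with Ti+Se-Met, and Lifr, the chain for Lif, was at 14.42, 5.73 and 6.73 FPKM. The folds in Ti against CTL were 2.39 (2.19 to 2.61) and 0.397 (0.344 to 0.458), and the quotient of Osmr to Lifr was 0.76 in CTL, 4.57 with Ti and 3.71 with Ti+Se-Met. As TPM, Osmr fell just short of 2-fold in Ti (a log2 ratio of 0.995) and in Ti+Se-Met (0.96) against CTL. Il11ra1 was at 60.59, 43.95 and 38.07 FPKM and Il6ra at 3.57, 2.94 and 2.47, with folds of 0.725 (0.67 to 0.785) and 0.824 (0.694 to 0.977) in Ti against CTL, and both were named after their values had been seen. Junb, Fos and Myc, early-response genes that STAT3 and growth factors induce, were the other 3 genes higher in Ti, with log2 ratios of 2.35, 1.68 and 1.21. Fos was at 0.43 FPKM in CTL, 3.58 with Ti and 3.07 with Ti+Se-Met. It reached the limit of 1 FPKM only in the libraries where it was high, so the limit itself favoured its call. Of the chemokine receptors and scavengers, 4 of 10 were listed. Ackr4, a scavenger receptor for homeostatic chemokines, was at 15.61, 4.27 and 4.56 FPKM.

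**Figure D4:**
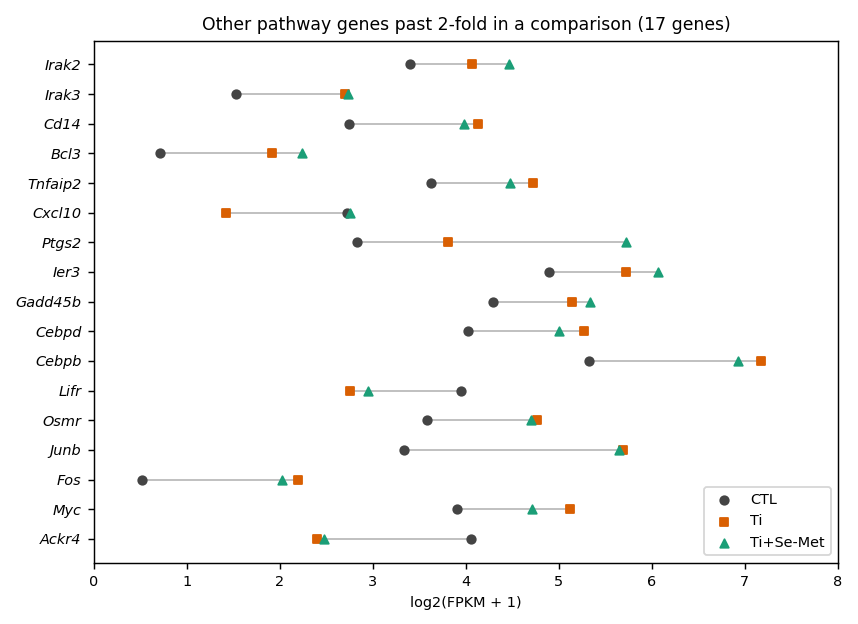
Level of the 17 further pathway genes past 2-fold in at least 1 comparison, on a horizontal axis of log2(FPKM + 1), in the CTL (circle), Ti (square) and Ti+Se-Met (triangle) library. Most lie to the right of CTL in both libraries with particles, Lifr and Ackr4 lie to the left in both, and Cxcl10 lies to the left in Ti alone.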

How the data were processed

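RNA-seq of MC3T3-E1 cells was read from 1 table that holds 3 libraries. After discarding reads of low quality or with adapter sequence, the authors mapped the rest with HISAT2, tallied them per gene with HTSeq and deposited FPKM, given to 2 decimals. The submitters' processing notes also name StringTie, SAMtools and the build mm9. How FPKM was made from counts is not given in the sources used here, and no scaling between libraries is stated. Columns were matched to libraries by name, and 0 were left unmatched.

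A gene was kept when it reached an FPKM of 1 in any library (11137 genes), and differences in log2(FPKM + 1) of 2-fold or above were called. Python 3.11.15 was used with pandas 2.3.3, scipy 1.17.1 and numpy 2.4.6. No count model was fitted to FPKM. Depth was estimated from FPKM steps in short single-transcript genes (350 to 1000 bases, less 150 bases), using GENCODE M21 lengths matched by RefSeq accession. Between 50.6% and 59.5% of the low values lay within 0.09 of a whole fragment, against 18% for values spread evenly at a depth fixed beforehand. Each depth was chosen as the one with the highest such share, so the 18% is not a like comparison, and fragment numbers are approximate. Estimated fragments added up to between 102% and 104% of these depths. The steps were tested on data simulated with the same length formula, which cannot show whether that formula holds for the real libraries. All listed members were named, and other pathway genes were named where past 2-fold in a comparison, except 1 that was left out of the lists and is not reported here. The members, the pathway lists, the motifs and the alternatives (a pseudocount of 0.1 or 5, no filter or one on a mean FPKM of 5, 1.5-fold, and scaling to TPM, by median of ratios or by upper quartile) were chosen with earlier results of these data known. Gene order and promoter sequences are RefSeq's on GRCm38.p6, and no coordinates were converted.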

Additional observations from a re-analysis of the deposited data

How the results depend on the processing

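No paired analysis was possible because there was a single library per condition, which also prevented leaving any library out. The 5 members past 2-fold in Ti against CTL became 8 with a pseudocount of 0.1, where Lif, Ccl9 and Birc3 joined them and 11.2% of all genes passed. With a 1.5-fold threshold the numbers were 11 in Ti against CTL, 10 in Ti+Se-Met against CTL (from 4) and 3 in Ti+Se-Met against Ti (from 1), where 26.8%, 22.2% and 2.12% of all genes passed by construction. Pim1, the 1 member called in Ti+Se-Met against Ti, was no longer called, which left 0, with a pseudocount of 5, which shrinks ratios by construction. As TPM the median log2 ratio of the members in Ti against CTL was -0.21 in place of 0.01, a factor common to all genes. Dropping the filter cannot add calls among members below 1 FPKM, by the construction of the ratio, so the equal numbers there say nothing about stability. Of 480 values of single members under another pseudocount or scaling, 415 were labelled as unmoved and 65 as moved (35 of them as TPM). A value was unmoved when it shifted by no more than the distance from the middle of its counting interval to an end, in log2. That interval is wide for a gene on few fragments, so its value can shift far and still be labelled as unmoved. With a pseudocount of 5, Ccl5 went from -2.11 to -1.5 in Ti against CTL and had that label. The number unmoved is thus no measure of stability. For Saa3 the interval against CTL had no upper end, so no shift there could count. Its log2 ratio in Ti against CTL went from 1.06 to 3.57 with a pseudocount of 0.1. Among the members past 2-fold, 0 changed direction. A pseudocount cannot turn a ratio round, and the scalings shifted ratios by too little to do so, so this says nothing about stability. Depth limits what can be said of Il6, Il11, Il1a, Ccl8, Icam1, Nos2 and Saa3, which rested on at most 11 fragments in every library.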
